A study of Homo sapiens with 6 samples.

Results

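A set of 10 genes was examined that switch the ERK pathway back off or that it switches on early: the phosphatase genes DUSP1, DUSP4, DUSP5, DUSP6 and DUSP7, the inhibitor genes SPRY2, SPRY4, SPRED1 and SPRED2, and the early response gene IER3. They were taken by gene name from the deposited table. All 10 were found among its 18268 rows, each in a row of its own. The cells were MIA PaCa-2, an established human pancreatic carcinoma line. The groups were cells overexpressing LINC00901, a long noncoding RNA (n = 3), and cells with the pCDH vector as control (n = 3). Both groups were grown in the same medium with fetal bovine serum and horse serum, and the labels give no time since the last change of medium. The labels do not say whether a group was a clone or a pool, or whether each replicate was grown on its own. A p-value therefore reflects the spread among these libraries only, and that spread may be technical.

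In the ERK pathway, RAS at the membrane activates RAF, RAF activates the kinases MEK1 and MEK2, and these activate the ERK kinases. Active ERK turns on genes whose products limit it. Dual-specificity phosphatases take the activating phosphates off MAP kinases, in the nucleus (DUSP1, DUSP4 and DUSP5) or in the cytoplasm (DUSP6 and DUSP7). Sprouty proteins act further up, between receptors and RAF, and SPRED proteins bring the RAS inactivator neurofibromin to the membrane. Because ERK induces many of these genes, their RNA levels are often read together with other ERK target genes in tumours.

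The values were FPKM, fragments scaled by the length of the gene and the size of the library, so levels can be set side by side between genes. They summed to between 127768 and 128538 in the overexpression libraries and to between 87162 and 88738 in the vector libraries, and the depth behind them is unknown. Groups were compared with limma on log2(FPKM + 0.5) over the 9694 rows with a mean of at least 1 FPKM, with Benjamini-Hochberg adjustment and a threshold of 0.05. A change on this scale understates that of low genes. The median gene was higher in overexpression libraries by 0.27 log2 (1.20-fold). Each relative log2 change below is relative to that median, while the adjusted p is that of the values as deposited unless a scaling is named. LINC00901 itself has 0 rows in the table used here, so the overexpression was not checked. The label is epithelial cell. Of 6 epithelial markers, which summed to between 100.3 and 129 FPKM in overexpression libraries and to between 122 and 136 in vector libraries, 3 were high enough to be tested and did not move one way. KRT19 was called higher, at 24.0 ± 1.06 FPKM in overexpression libraries and 3.71 ± 1.95 in vector libraries (SD, n = 3 each, limma adjusted p = 0.000654), while KRT18 and KRT8, the last in a row joined with KRT78, were called lower. Of the other markers, EPCAM and CDH1 averaged at most 0.09 FPKM in either group. The mesenchymal markers VIM, CDH2, ZEB1 and FN1 summed to between 548 and 637 FPKM in overexpression libraries and to between 202 and 255 in vector libraries, nearly all of it VIM, and their part in the results below was not tested. The immune markers PTPRC and CD3E were listed at 0 in all 6 libraries, and CD68 only in a row joined with EIF4A1 and SENP3. The fibroblast markers COL1A1, COL1A2 and DCN summed to between 11.9 and 17.8 FPKM in overexpression libraries and to between 18.1 and 19.4 in vector libraries, with DCN at or near 0, and the 3 endothelial markers to at most 0.64 in overexpression libraries and 0.28 in vector libraries.

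Of the 10 genes, 8 were high enough to be tested. DUSP1, DUSP5, DUSP7, SPRY2 and IER3 rose in the overexpression libraries, 0 fell, and SPRY4, SPRED1 and SPRED2 did not pass. Of all tested rows 37.4% were called higher and 11.9% lower. The median log2 change of the 8 was 0.77, against 0.27 over all tested rows. DUSP5 passed the filter only through the overexpression libraries, where it is high. The count of genes called and the median of the 8 thus both include 1 gene that had to differ in order to be tested. The median is therefore not to be read against that over all tested rows as a result about the set. With each library centred on its median 3 remained higher (DUSP1, DUSP5 and IER3), where 24.0% of all rows were called higher and 19.2% lower. The same 3 were called higher under quantile normalization (19.2% of all rows higher, 20.9% lower) and after a correction for gene length and GC content (20.8% higher). The overexpression libraries all lay above the vector libraries for 5 of the 8 tested genes, DUSP5 included, and for 44.9% of tested rows. They also did so for DUSP6, which was not tested. The remaining 4 of the 10 genes overlapped between the groups.

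**Figure D1:**
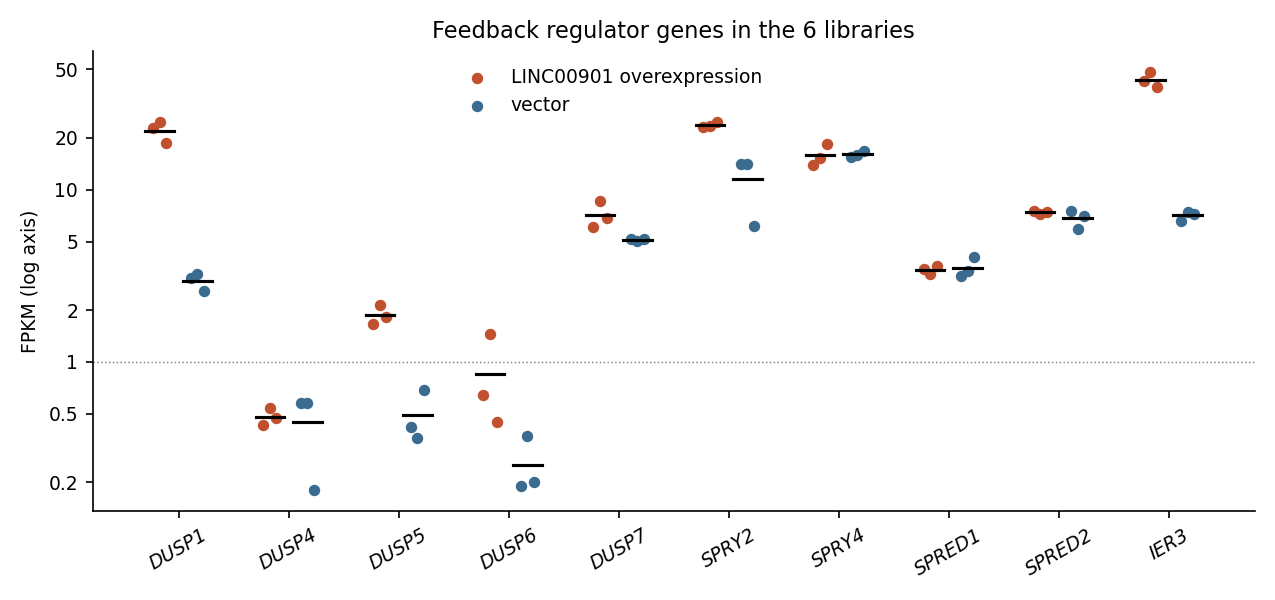
FPKM of the 10 genes (log axis) in each library; points are libraries, overexpression in red left of vector in blue, black bars are group means (n = 3) and the dotted line marks 1 FPKM. DUSP1 and IER3 stood far above the vector libraries, SPRY4, SPRED1 and SPRED2 overlapped between groups, and DUSP4 and DUSP6 lay mostly below 1 FPKM.

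DUSP1, a nuclear phosphatase of p38, JNK and ERK that serum and stress induce within minutes, showed the largest rise of the 8 tested genes. The RefSeq sequence around its start (GRCh38.p14, minus strand, chr5:172771146-172771445, from 250 bases before to 50 after the start) is shown because DUSP1 led the set, beside the same window of SPRY4 (minus strand, chr5:142324198-142324497), a gene of the set at a high level that was not called. Capitals mark matches on either strand to TGACGTCA (the cyclic AMP response element), its half-site TGACG, which lies within it, CACGTG (the E-box) and TATAAA (the TATA box). Matches to TGANTCA (the AP-1 site), CCGGAA (an ETS core) and the CArG box of serum response elements were also searched, and neither window holds one.
DUSP1: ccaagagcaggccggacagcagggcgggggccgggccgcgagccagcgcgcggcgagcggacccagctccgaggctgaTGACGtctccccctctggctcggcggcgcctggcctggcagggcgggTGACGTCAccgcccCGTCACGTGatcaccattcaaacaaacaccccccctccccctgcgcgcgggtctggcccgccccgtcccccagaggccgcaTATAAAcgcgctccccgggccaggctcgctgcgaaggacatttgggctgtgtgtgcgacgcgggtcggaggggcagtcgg
SPRY4: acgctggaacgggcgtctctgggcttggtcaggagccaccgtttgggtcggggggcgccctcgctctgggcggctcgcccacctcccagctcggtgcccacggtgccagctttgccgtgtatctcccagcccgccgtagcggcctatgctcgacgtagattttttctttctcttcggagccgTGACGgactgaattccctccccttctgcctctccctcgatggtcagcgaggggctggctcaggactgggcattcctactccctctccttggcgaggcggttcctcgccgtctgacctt

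The DUSP1 window holds 1 full cyclic AMP response element, at -125 to -118 from the start, and 4 half-site matches, of which 2 lie within the full element. The E-box, at -108 to -103, overlaps the half-site nearest to the start, and the TATA box begins at -30. The SPRY4 window holds 1 half-site and no TATA box. Among all 35116 windows of the table, 1.85% hold the full element, 24.6% the half-site, 7.26% the E-box and 11.5% the TATA box. Windows were searched for 7 of the 10 genes, 10 windows in all, and 0 of them hold a CArG box (1.29% of all windows). The half-site lies in 4 of these 7 genes (DUSP1, SPRY2, SPRY4 and SPRED2), of which SPRY4 and SPRED2 were not called. Counts here are per gene, while the shares over all windows are per window, so the 2 are unlike measures. SPRY2 has 3 windows and SPRED2 has 2, and only window 1 of each holds the half-site. The TATA box lies in DUSP1 and SPRED2, and the full element and the E-box in DUSP1 only. Of the 7, only SPRY2 holds an ETS core (17.2% of all windows) and only SPRED2 an AP-1 site (7.71%). The windows for the set were taken with 1 chromosome left out, which the shares over all windows did not leave out. DUSP4, DUSP5 and IER3 had no window among those taken, so the sequences at their starts were not searched. A match is a description of the letters and shows no binding.

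DUSP1 stood at 22.71, 24.59 and 18.69 FPKM in overexpression libraries, against 3.07, 3.23 and 2.58 FPKM in vector libraries. Every overexpression library was far above every vector library, and within each group replicate 2 was the highest and replicate 3 the lowest. The mean was 22.0 ± 3.01 FPKM in overexpression libraries and 2.96 ± 0.339 in vector libraries (SD, n = 3 each), 7.43-fold. Its relative log2 change was 2.43 ± 0.14 (SE), with a limma adjusted p of 6.21e-05, the rank 18 among the 9694 unscaled changes. Leaving out any library kept the unscaled log2 change between 2.61 and 2.81.

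DUSP5, a nuclear phosphatase selective for ERK, was low but separate. It stood at 1.67, 2.14 and 1.83 FPKM in overexpression libraries, against 0.42, 0.36 and 0.69 in vector libraries. All 3 vector values were below the filter level of 1 FPKM and all 3 overexpression values above it. The relative log2 change was 1.01 ± 0.18 (SE), with a limma adjusted p of 0.00152. With a pseudocount of 0.1 the unscaled log2 change of DUSP5 was 1.78 and with 1 it was 0.95, against 1.28 with 0.5, and all 3 passed.

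DUSP4, the third nuclear phosphatase, acts on ERK and JNK, and it was too low to test. Its values were 0.43, 0.54 and 0.47 FPKM in overexpression libraries and 0.58, 0.58 and 0.18 in vector libraries, so the groups overlapped. Fitted without a filter, its log2 change was 0.08 (95% confidence interval -0.40 to 0.56, limma adjusted p = 0.779). Centred as well, it was -0.07, so the sign of the DUSP4 difference depends on the scaling.

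DUSP6, the cytoplasmic phosphatase widely used as a readout of ERK activity, was also below the filter. It was listed at 0.64, 1.45 and 0.45 FPKM in overexpression libraries and at 0.19, 0.37 and 0.20 in vector libraries. The groups did not overlap, but overexpression replicate 2 stood well above the other 2. Fitted without a filter, the DUSP6 log2 change was 0.78 (95% confidence interval 0.12 to 1.43), with a limma adjusted p of 0.0696, and with median centring as well it was 0.63 (adjusted p = 0.110). Without a filter 25.7% of 14518 rows were called higher. At these levels DUSP6 was among the lowest of the 10 genes in both groups.

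DUSP7, its cytoplasmic relative, was by level the main phosphatase gene of the 5 in vector cells. It stood at 6.05, 8.55 and 6.87 FPKM in overexpression libraries, against 5.16, 5.01 and 5.16 in vector libraries. The groups were separate, with vector libraries close together and overexpression replicate 2 highest. The relative log2 change was 0.17 ± 0.14 (SE). The limma adjusted p of 0.0336 became 0.221 after median centring, 0.245 with quantile normalization and 0.708 when corrected for length and GC content. It was 0.0684, 0.0772 and 0.0688 without vector replicates 1, 2 and 3, and 0.0778 and 0.0760 without overexpression replicates 2 and 3, where the log2 change was 0.31 without replicate 2 and 0.44 with all libraries. Over its alternatives the adjusted p ranged from 0.0214 to 0.708.

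The make-up of the 5 phosphatase transcripts, a measure that 1 common factor for a whole library leaves unchanged, was separate between the groups as deposited. Scalings that change genes unequally, by quantiles or by length and GC content, can alter a share, and shares were not computed under them. Together they summed to 31.50, 37.27 and 28.31 FPKM in overexpression libraries and to 9.42, 9.55 and 8.81 in vector libraries. The nuclear members DUSP1, DUSP4 and DUSP5 held 78.8%, 73.2% and 74.1% of that sum in overexpression libraries, against 43.2%, 43.7% and 39.2% in vector libraries. The groups were separate, by 33.3 percentage points (two-sided exact permutation test, p = 0.1, the smallest that 3 against 3 allows). DUSP1 accounted for 68.0% ± 3.52 of the sum in overexpression libraries and 31.9% ± 2.35 in vector libraries, and DUSP7 for 22.1% ± 2.62 in overexpression libraries and 55.3% ± 3.08 in vector libraries (SD, n = 3 each). The share of DUSP4 was 1.49% ± 0.152 in overexpression libraries and 4.76% ± 2.35 in vector libraries, separate as well (two-sided exact permutation p = 0.1). That of DUSP6 was 2.50% ± 1.22 in overexpression libraries and 2.72% ± 1.01 in vector libraries (exact p = 0.8). That of DUSP5 was 5.84% ± 0.587 in overexpression libraries and 5.35% ± 2.17 in vector libraries (exact p = 0.8).

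**Figure D2:**
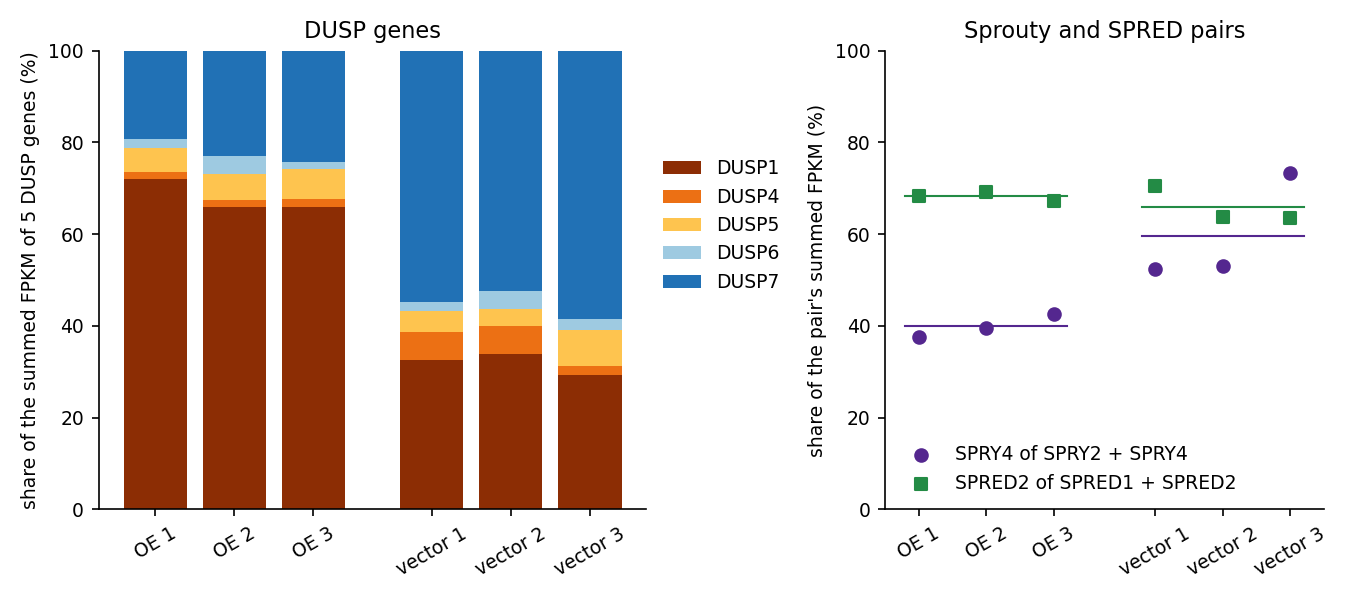
Left, the share of each of 5 DUSP genes in their summed FPKM, 1 bar per library (OE, overexpression); right, the share of SPRY4 in SPRY2 + SPRY4 and of SPRED2 in SPRED1 + SPRED2 (points, libraries; lines, group means, n = 3). DUSP1 took 66.0% to 72.1% in overexpression libraries and 29.3% to 33.8% in vector libraries, and SPRY4 took a smaller share of its pair in every overexpression library than in any vector library.

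The 2 Sprouty genes, both inhibitors of RAS activation downstream of receptor tyrosine kinases, were set side by side. SPRY2 stood at 23.00, 23.51 and 24.85 FPKM in overexpression libraries, against 14.19, 14.05 and 6.15 in vector libraries. The overexpression values were close together and all higher, while vector replicate 3 was less than the other 2 by a wide margin. The relative log2 change was 0.85 ± 0.30 (SE), with a limma adjusted p of 0.0204. Without vector replicate 3 the unscaled log2 change of SPRY2 was 0.73 (adjusted p = 0.00199), against 1.11 with all libraries. Without overexpression replicates 1, 2 and 3 the adjusted p was 0.0517, 0.0538 and 0.0578. It was 0.0505 after median centring, 0.133 with quantile normalization and 0.0781 when corrected for length and GC content, and over its alternatives the adjusted p ranged from 0.00199 to 0.133.

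SPRY4 was the highest of the 10 genes in vector cells and did not pass the test. It stood at 13.82, 15.34 and 18.48 FPKM in overexpression libraries and at 15.58, 15.94 and 16.86 in vector libraries. The vector range lay inside the overexpression range. The relative log2 change of SPRY4 was -0.30 ± 0.12 (SE). Its unscaled log2 change was -0.03 (95% confidence interval -0.31 to 0.25, limma adjusted p = 0.846). It was 0.00079 without vector replicate 3 and 0.061 without overexpression replicate 1, so the sign of the SPRY4 difference rests on single libraries. With quantile normalization it was -0.46 with an adjusted p of 0.0209, where 20.9% of all rows were called lower (adjusted p over its alternatives 0.0209 to 0.997). SPRY4 held 37.5%, 39.5% and 42.6% of the summed FPKM of SPRY2 and SPRY4 in overexpression libraries, against 52.3%, 53.2% and 73.3% in vector libraries. The difference was -19.7 percentage points (two-sided exact permutation p = 0.1, the smallest possible), and -12.9 without vector replicate 3.

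SPRED1 and SPRED2 did not pass the test in either direction. SPRED1 stood at 3.47, 3.23 and 3.60 FPKM in overexpression libraries and at 3.15, 3.37 and 4.07 in vector libraries. SPRED2 stood at 7.51, 7.25 and 7.38 FPKM in overexpression libraries and at 7.57, 5.93 and 7.08 in vector libraries. For both genes the overexpression values lay within the vector range. The relative log2 change was -0.29 ± 0.12 (SE) for SPRED1 and -0.16 ± 0.11 (SE) for SPRED2. The unscaled log2 change of SPRED1 was -0.03 (95% confidence interval -0.33 to 0.27, limma adjusted p = 0.860), and 0.027 once corrected for length and GC content. That of SPRED2 was 0.10 (-0.16 to 0.37, limma adjusted p = 0.465), and -0.10 after median centring. For SPRED1 and SPRED2 the sign of the difference thus depends on the scaling. SPRED2 held 68.3% ± 0.990 of the pair's summed FPKM in overexpression libraries and 66.0% ± 4.04 in vector libraries (SD, n = 3 each, two-sided exact permutation p = 0.4).

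IER3, an early response gene whose protein is an ERK substrate and can prolong ERK activity and cell survival, rose nearly as much as DUSP1. It stood at 42.96, 48.43 and 39.38 FPKM in overexpression libraries, against 6.61, 7.42 and 7.25 in vector libraries. The groups lay far apart, and overexpression replicate 2 was again highest and replicate 3 lowest, as for DUSP1. The mean was 43.6 ± 4.56 FPKM in overexpression libraries and 7.09 ± 0.427 in vector libraries (SD, n = 3 each), 6.15-fold. The relative log2 change was 2.27 ± 0.10 (SE), with a limma adjusted p of 3.77e-05 and rank 24 among the 9694 unscaled changes.

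**Figure D3:**
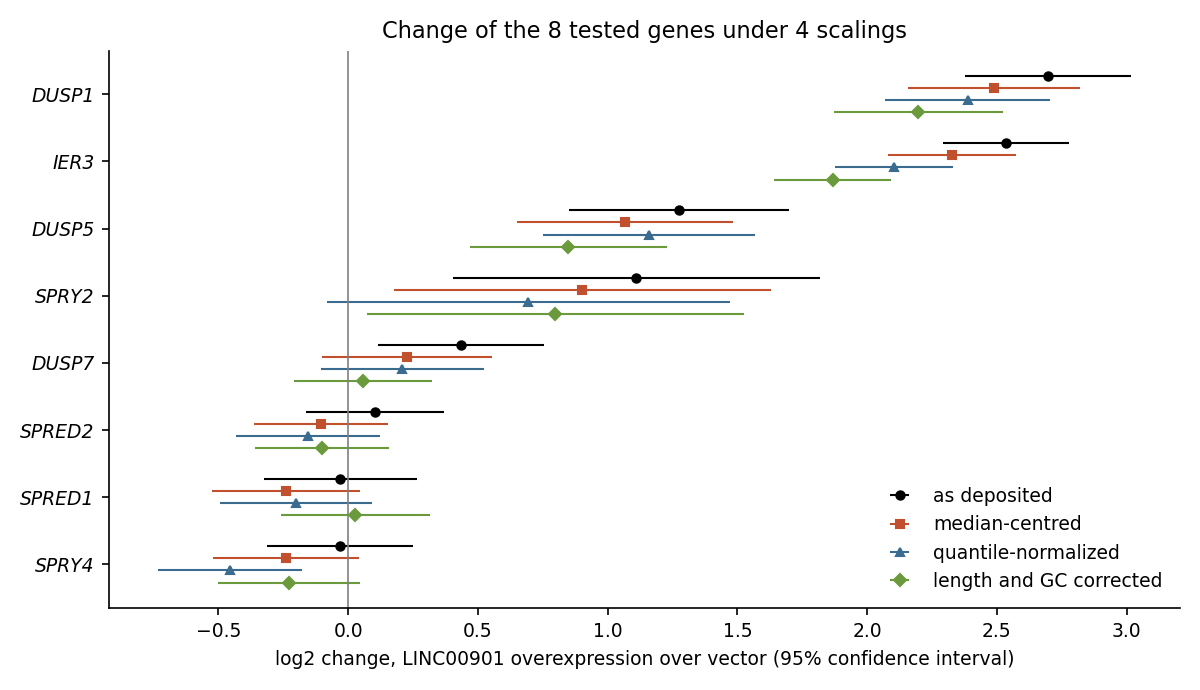
log2 change of the 8 tested genes, overexpression over vector, with 95% confidence intervals from limma, as deposited and under 3 other scalings; the line at 0 marks no difference. The intervals of DUSP1, IER3 and DUSP5 lay above 0 under all 4 scalings, and those of SPRED1 and SPRED2 included 0 under all 4.

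The exact permutation test on single genes gave p = 0.1 for DUSP1, DUSP5, DUSP6, DUSP7, SPRY2 and IER3, the smallest that 3 libraries against 3 allow (two-sided). The order of the mean levels was not the same in both groups. In overexpression cells it was IER3, SPRY2, DUSP1, SPRY4, SPRED2, DUSP7, SPRED1, DUSP5, DUSP6 and DUSP4, with library ranges overlapping between SPRY2 and DUSP1, SPRED2 and DUSP7, and DUSP6 and DUSP4. In vector cells it was SPRY4, SPRY2, IER3, SPRED2, DUSP7, SPRED1, DUSP1, DUSP5, DUSP4 and DUSP6. There the ranges overlapped between SPRY2 and IER3, IER3 and SPRED2, SPRED1 and DUSP1, DUSP5 and DUSP4, and DUSP4 and DUSP6. Within the overexpression group, replicate 2 was the highest library for all 5 DUSP genes and IER3, 6 of the 10, while replicate 3 was highest for SPRY2, SPRY4 and SPRED1. In these bulk libraries more cells with the transcript and more RNA per cell cannot be told apart.

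Genes whose profiles over the 6 libraries lay nearest to that of DUSP1, each centred on its vector mean, were CNFN, RRAS and CXCL2. Their root mean square distances were 0.17, 0.18 and 0.18 log2. RRAS, a RAS-related GTPase gene, stood at 22.31, 26.95 and 22.65 FPKM in overexpression libraries, against 4.44, 3.96 and 2.70 in vector libraries. CXCL2, a chemokine gene, stood at 10.59, 10.27 and 10.83 FPKM in overexpression libraries, against 1.35, 1.11 and 1.26 in vector libraries. CNFN was listed at 0 in all vector libraries and passed the filter only through the overexpression libraries, so its nearness to DUSP1 depends on the pseudocount. Nearest to SPRY4, the tested gene of the set with the lowest change, were the joined row DHX35;FAM83D and the genes DDX31 and RANBP3, at 0.05, 0.06 and 0.07 log2.

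The counts for the pathway lists that follow stand beside 37.4% higher and 11.9% lower over all tested rows as deposited, and 24.0% and 19.2% after median centring. The lists overlap. MAP2K3, ETV4, ETV5 (in a row joined with DGKG), FOSL1, MYC and SRF each stand in several of them and count in each, so the counts are not separate. The rest of the MAP kinase phosphatase family was mostly low. Of DUSP2, DUSP8, DUSP9, DUSP10 and DUSP16, 2 were tested and both were called higher. DUSP2, a nuclear phosphatase induced like DUSP1, stood at 6.49 ± 0.679 FPKM in overexpression libraries and 0.467 ± 0.228 in vector libraries (SD, n = 3 each), with a relative log2 change of 2.61 and a limma adjusted p of 0.000155. It too passed the filter only through the overexpression libraries. DUSP16, which acts on JNK and p38, stood at 2.64 ± 0.226 FPKM in overexpression libraries and 1.70 ± 0.221 in vector libraries (adjusted p = 0.0166, and 0.0996 after median centring). Of 14 atypical dual-specificity phosphatases 7 were tested, DUSP11 and DUSP14 were called higher and DUSP12 lower, and after median centring only DUSP12 was called (relative log2 change -0.70, limma adjusted p = 0.0239 as deposited). SPRY1, the only tested gene among SPRY1, SPRY3 and SPRED3, stood at 10.5 ± 2.30 FPKM in overexpression libraries and 7.57 ± 4.78 in vector libraries and did not pass (adjusted p = 0.329).

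The kinases on which these regulators act were described from a list of 17 core pathway genes. Of 15 tested, 8 were called higher (53.3%) and 1 lower, and 4 (26.7%) and 2 after median centring, with a median relative log2 change of 0.01. MAPK3, which encodes ERK1, stood at 11.8 ± 0.490 FPKM in overexpression libraries and 2.62 ± 0.476 in vector libraries (relative log2 change 1.73, limma adjusted p = 0.000138). MAP2K2, which encodes MEK2, rose by a relative log2 of 0.91, ARAF by 0.65 and GRB2, a receptor adaptor, by 0.52. GRB2 was not called under quantile normalization (adjusted p = 0.192) or after the length and GC correction (adjusted p = 0.0658). MAP2K1, which encodes MEK1, was called as deposited but not after median centring. BRAF was lower, at 3.35 ± 0.478 FPKM in overexpression libraries and 4.52 ± 0.302 in vector libraries (adjusted p = 0.0428, and 0.0555 after the length and GC correction). Of 8 tested p38 and JNK kinases, substrates of DUSP1 and DUSP16 or activators of them, MAP2K3 was higher and MAPK14, which encodes p38 alpha, lower (12.5% each), and 1 and 2 (25.0%) after median centring, where MAPK9, a JNK gene named after its values were seen, was also called lower. MAPK14 stood at 4.39 ± 0.528 FPKM in overexpression libraries against 11.0 ± 3.25 in vector libraries (SD, n = 3 each).

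Among 18 genes read as ERK output, 16 were tested, 9 were called higher (56.2%) and 1 lower, and 7 (43.8%) and 2 after median centring. The median relative log2 change was 0.08. SERPINB1 (0.95), PHLDA1 (0.88), S100A6 (0.79) and MAP2K3 (0.60) had the highest relative log2 changes of the 9 called higher. The gene called lower was SLCO4A1, named after its values were seen, with a relative log2 change of -0.61 (adjusted p = 0.0490). Under quantile normalization PHLDA1 (adjusted p = 0.182) and S100A6 (log2 change 0.11, adjusted p = 0.554) were not called. After the length and GC correction only SERPINB1 (limma adjusted p = 0.00211) and PHLDA1 (adjusted p = 0.0276) of the 16 were called higher. Over all rows 20.8% were called higher there. S100A6 (adjusted p = 0.177) and MAP2K3 (adjusted p = 0.147) were not called, and SLCO4A1 was again lower (adjusted p = 0.00301). The cyclin gene CCND1 stood at 14.4 ± 0.20 FPKM in overexpression libraries and 14.8 ± 0.850 in vector libraries and did not pass as deposited. CCND1 was called lower after median centring and after the length and GC correction (limma adjusted p = 0.0371). Of 11 tested ERK-regulated transcription factors, 9 were higher (81.8%) and 0 lower, and 6 (54.5%) and 1 after median centring, with FOSL1 (1.24), ETS1 (1.12), MYC (0.96) and ELK3 (0.61) leading those called in relative log2 change. Of 16 tested immediate early transcription factors, which serum and ERK induce together with DUSP1 and IER3, 12 were higher and 0 lower, and 11 and 0 after median centring. Of these 12, FOS, FOSB (in a row joined with CD3EAP), EGR3, ATF3 and NR4A1 averaged below 1 FPKM in vector libraries. They passed the filter only through the overexpression libraries, so the count includes 5 genes that had to differ in order to be tested. FOS, EGR1, JUNB and EGR3 led these, with FOS at a relative log2 change of 5.32, and EGR3 was listed at 0 in all 3 vector libraries. Of 3 related early genes 2 were tested, and these, IER2 and IER5L, rose by a relative log2 of 1.76 and 0.88. IER5 was below the filter, at 0 FPKM in all overexpression libraries and 3.02, 0 and 0 in vector libraries.

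Of 11 tested other inhibitors of receptors and RAS, 4 were higher (IL17RD, PEBP1, SOCS3 and CBL) and 2 lower, and 3 and 3 after median centring. These shares, 36.4% and 18.2% as deposited and 27.3% each after centring, lie near those over all tested rows. IL17RD, a membrane inhibitor of growth factor signalling that ERK induces, stood at 3.59 ± 0.167 FPKM in overexpression libraries and 1.53 ± 0.172 in vector libraries (relative log2 change 0.74, limma adjusted p = 0.000835). PEBP1, an inhibitor of RAF signalling, rose by a relative log2 of 0.51 as deposited, but its log2 change was 0.00049 under quantile normalization (adjusted p = 0.996), and it was not called after the length and GC correction (adjusted p = 0.0560). SOCS3, an inhibitor of cytokine receptors, rose by a relative log2 of 0.81 (adjusted p = 0.0678 after the length and GC correction), and it passed the filter only through the overexpression libraries. RASAL2, a RAS inactivator, fell by 1.01 on the relative log2 scale (adjusted p = 0.0156, and 0.0568 after the length and GC correction). NF1, the gene of the neurofibromin that SPRED proteins recruit and named after its values were seen, stood at 5.59 ± 0.520 FPKM in overexpression libraries and 8.03 ± 0.225 in vector libraries (adjusted p = 0.0075).

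**Figure D4:**
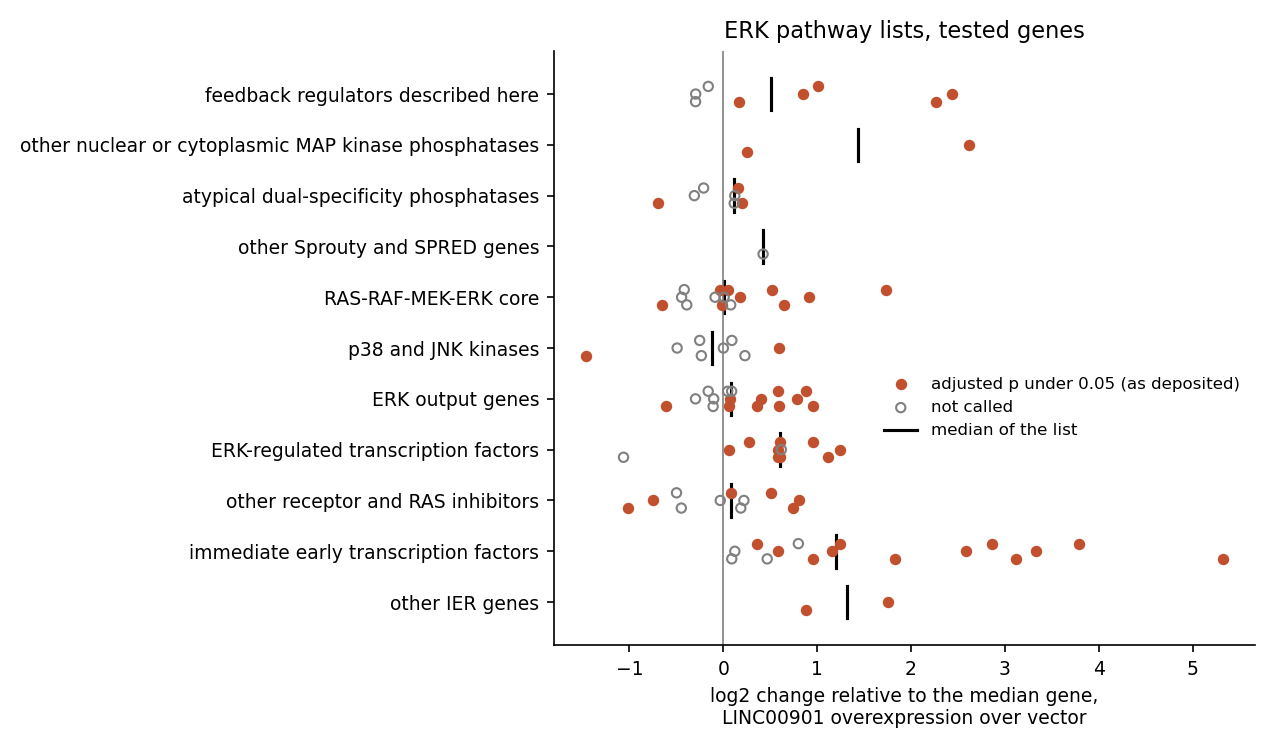
log2 change relative to the median gene, overexpression over vector, of the 8 tested feedback regulators (top) and of the tested genes of 10 ERK pathway lists; filled points passed an adjusted p of 0.05 as deposited, open points did not, and black bars are list medians. The feedback regulators spanned -0.30 to 2.43, and the immediate early transcription factors reached 5.32.

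Genes that overlap the set on the same strand, and pseudogene copies, can add reads. Those on the opposite strand can do so where counting ignores strand, and whether it used strand is not given in the sources used here. In GENCODE 29, DUSP1, DUSP6, SPRY4 and IER3 overlap a gene on the opposite strand, SPRED2 overlaps 1 on its own strand, and DUSP5 has 2 processed pseudogenes. None of these neighbours and copies has a row in the table, so the values of these 6 genes may include some of their reads.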

How the data were processed

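The deposited values are FPKM per gene and library, with 2 decimals, per the file headers. The submitters' processing notes name HISAT2, cutadapt, FastQC and build hg19, but no versions and no tool for the FPKM step. Of 18268 rows 990 join several names. All 13 mitochondrially encoded rows are listed at 0, so a 0 can be a failed estimate. In rows under 800 bases with low values, 20.9% of 177 ratios to the lowest library lay within 0.1 of a whole number, so no whole reads were recovered and no count model was used.

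Groups were fitted in R 4.3.3 (limma 3.58.1, trend on intensity, unblocked), a procedure tested on simulated data. Tables used Python 3.11.15, pandas 2.3.3, numpy 2.4.6 and scipy 1.17.1. The members and lists were chosen with earlier results of these data known. Named were all members, up to 4 called genes per list, a fixed set of core kinases, some of which are not reported here, and the 3 nearest profiles. Alternatives were other pseudocounts, filters, scalings, variance options and thresholds, a replicate block, leaving out joined rows or each library. The length and GC correction took both from the longest GENCODE 29 transcript per symbol (known for 99.4% of tested rows). Windows around gene starts are RefSeq's on GRCh38.p14, another build than the authors', and no coordinates were converted. Samples were grouped by their titles.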

Additional observations from a re-analysis of the deposited data

How the results depend on the processing

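The rises of DUSP1, DUSP5 and IER3 kept their direction and their call in every alternative in which they were tested; DUSP5 was not tested with a mean of at least 5 FPKM. The number of members called higher was 5, and 3 after median centring, 3 with quantile normalization, 3 after the length and GC correction, 3 with an adjusted p of 0.01, 3 with no filter and median centring together (chosen after seeing the data) and between 3 and 4 without single libraries. Members called lower were 0, and 1 with quantile normalization (SPRY4). Numbers shared by replicates did not pair the libraries: same-numbered libraries correlated between -0.037 and -0.005 in their deviations, and 0 of 3 overexpression libraries correlated best with their own number. With the replicate block 3262 genes were higher and 965 lower, and 4 members were higher; DUSP7 had a log2 change of 0.44 and an adjusted p of 0.0598.

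The log2 change of DUSP7 was 0.23 after median centring, 0.21 with quantile normalization, 0.058 after correction for length and GC, 0.29 unfiltered and centred, 0.44 at a threshold of 0.01, where it did not pass, and 0.31 to 0.54 without single libraries. That of SPRY2 was 0.90, 0.69, 0.80, 0.96 and 1.11 in the same settings and 0.73 to 1.30 without single libraries. That of SPRY4 was -0.46 with quantile normalization and -0.14 to 0.061 without single libraries, 0.00079 without vector replicate 3. That of SPRED1 was 0.027 after correction for length and GC and -0.098 to 0.065 without single libraries. That of SPRED2 was -0.10 after median centring, -0.15 with quantile normalization, -0.099 after correction for length and GC and -0.045 unfiltered and centred. The cause was not tested.

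Over all rows, 3621 were higher and 1152 lower. The counts were 2396 and 422 with a mean of at least 5 FPKM (fewer rows), 2331 and 1866 after median centring, 1865 and 2024 with quantile normalization, 2007 and 1784 after correction for length and GC, 2684 and 2338 with no filter and centring, 2287 and 594 at 0.01, and between 2768 and 3371 and between 812 and 1004 without single libraries. Of the pathway lists, each gene counted once, 43 genes were higher and 6 lower, with 30 and 11 after median centring, 26 and 14 with quantile normalization, 27 and 9 after correction for length and GC, 28 and 2 at 0.01, and 33 to 41 and 2 to 4 without single libraries. No share of the tested list genes stands beside these counts, so they are not to be read against the shares over all rows. The 43 include DUSP2, SOCS3, FOS, FOSB, EGR3, ATF3 and NR4A1, which passed the filter only through the overexpression libraries. Differences in shares changed in size, not in sign, without single libraries: 31.6 to 34.4 percentage points for the nuclear DUSP genes, -23.3 to -12.9 for SPRY4 and 1.07 to 4.63 for SPRED2. Their depth is unknown, so values below 1 FPKM are the least certain.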
